A study of Mus musculus with 12 samples.

Results

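Tumours of mice given temozolomide and an antibody against PD-1 together (Combination) were compared with tumours of the Control group, with 3 arrays on each side of 12 arrays in all. The members are all arrays that the labels place in these groups, and the comparison covered 22180 genes, each read from 1 probe set. Every sample came from a graft of GL261, a line of mouse glioma cells that forms tumours in C57BL/6 mice with an intact immune system. GL261 cells had been placed in the brains of male C57BL/6 mice aged 8 weeks, and total RNA of the tumour mass was taken on day 16. The Combination mice received TMZ (temozolomide) at 30 mg/kg into the peritoneum and anti-PD-1 at 10 mg/kg into a vein, with 2 antibody injections per week. The labels state neither what the Control mice received, nor the dosing days, nor whether an array holds 1 animal or a pool. The TMZ and Anti-PD-1 groups, also of 3 arrays each, received 1 of the agents and are used here only beside the Combination.

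TMZ is an alkylating drug that methylates DNA. The lesion it leaves on guanine is removed by the repair enzyme MGMT, and unrepaired lesions damage DNA when cells replicate it and can stop the cell cycle. PD-1 is an inhibitory receptor on activated T cells, and its ligand PD-L1 (Cd274) is induced on tumour and myeloid cells by interferon. Antibodies that block PD-1 release T cells from this brake, and the interferon gamma that T cells secrete then raises genes of antigen presentation and chemokines in neighbouring cells. In glioma most immune cells are microglia and blood-derived macrophages rather than lymphocytes.

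Values are log2 signals, so that a difference of 1 is a doubling, and they ranged from 1.24 to 13.14 over all probe sets. Array medians lay between 5.06 and 5.12, and the 6 arrays of the comparison correlated at 0.986 to 0.991 with each other over all genes. On the first principal component of these 6 arrays, which held 37.4% of the variance, the Control arrays had coordinates of -15.2, -21.0 and 4.03 for replicates 1 to 3. Those of the Combination arrays were 11.4, 8.98 and 11.7. Control replicate 3 thus stood apart from the other Control arrays on the side of the treated tumours, and the main results are given with and without it. This array was singled out from these same values, and no label marks it as faulty. Leaving out the Control array nearest to the Combination tends to widen differences and narrow the Control spread. Calls made without it therefore show how the results depend on 1 array and are not separate evidence. Transcripts of normal brain were present in all samples: Snap25, a synaptic protein of neurons, read 12.14, 12.21 and 12.30 in Control replicates 1 to 3 and 12.24, 12.15 and 12.20 in the Combination. The samples were whole tissue, so fewer cells of a type and less RNA per cell cannot be told apart.

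No gene passed the threshold in Combination against Control. limma called 0 of 22180 genes (0%) at a Benjamini-Hochberg adjusted p under 0.05, and the smallest adjusted p was 0.0639. At an unadjusted p under 0.05 there were 2576 genes (11.6%), of which 1205 (5.43%) were higher and 1371 (6.18%) lower in the Combination. The arrays of the groups did not overlap for 3725 genes (16.8%), with 1991 (8.98%) higher and 1734 (7.82%) lower. These shares are the background for each list below. The lists were written with earlier results of these data known, and members of a list can vary together. Their counts therefore describe the lists and are not a test. Over all genes the median difference was 0.000478 and 49.8% of genes had a negative difference, on arrays that had been quantile normalised together.

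The count of calls depended on Control replicate 3 and on the way the variance was estimated. Without Control replicate 3, limma called 282 genes (1.27%), of which 226 (1.02%) fell and 56 (0.252%) rose in the Combination. Leaving out Combination replicate 2 gave 3 genes, and leaving out any other single array gave 0. A variance trend with a robust prior gave 33 genes, array weights gave 17 and a minimum mean log2 value of 5 gave 5. Of these, 32, 17 and 5 were also among the 282. All these fits share the same arrays, so the overlap is not separate evidence.

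**Figure D1:**
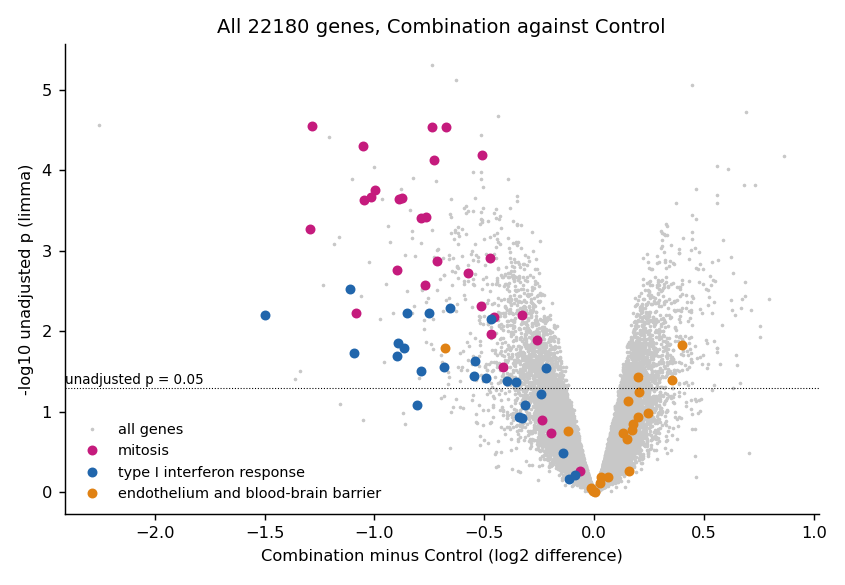
Log2 difference (Combination minus Control, x axis) of 22180 genes against minus log10 of the unadjusted limma p (y axis), with 1 point per gene and the mitosis, type I interferon and endothelium lists in colour. The 29 mitosis genes and the 26 type I interferon genes lie on the negative side, and 0 genes pass an adjusted p of 0.05.

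Of genes with separate groups (no overlap between Combination and Control arrays), leaving out clone-named and predicted genes, receptors of smell and taste and small RNAs, the 8 lower ones with the smallest p were mostly genes of cell division. They were Neb, Moxd1, Ect2, Hmmr, Aurka, Cdc6, Ccna2 and Kif23, and all of them missed the threshold. Their differences ran from -0.51 to -2.25. Moxd1 (probe set 17232215), a copper-dependent monooxygenase related to dopamine beta-hydroxylase, was the most different of them. Its log2 values were 8.91, 9.43 and 7.99 in Control replicates 1 to 3 and 6.31, 7.03 and 6.23 in the Combination. Every Combination array lay well below the lowest Control array, and Control replicate 3 was the lowest of its group. The Moxd1 difference was -2.25 ± 0.34 (SE, n = 3 and 3), a level 4.77-fold lower, with an adjusted p of 0.0725 in limma, and it was -2.65 with an adjusted p of 0.00427 without Control replicate 3. Neb (probe set 17385099) encodes nebulin, a giant actin-binding protein of muscle thin filaments. Neb read 5.05, 5.10 and 4.94 in Control and 4.44, 4.34 and 4.44 in the Combination. Here the groups were tight and Control replicate 3 lay close to the other Control arrays. The Neb difference was -0.63 ± 0.083 (SE), with an adjusted p of 0.0639 in limma, and -0.67 with an adjusted p of 0.00898 without Control replicate 3.

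Ect2 activates RhoA at the cell equator in cytokinesis. Its log2 values were 5.93, 6.34 and 5.34 in Control and 4.62, 4.60 and 4.54 in the Combination, a difference of -1.28 ± 0.19 (SE) with an adjusted p of 0.0725 in limma. The Combination arrays were nearly equal, and the Control arrays spread over nearly 1 log2 unit with replicate 3 lowest. Hmmr, a spindle protein that also binds hyaluronan, read 4.14, 4.06 and 3.63 in Control and 3.14, 3.27 and 3.20 in the Combination (-0.74 ± 0.11 SE, adjusted p 0.0725 in limma). Ccna2, the cyclin A that drives S phase and mitotic entry, read 6.34, 6.61 and 5.76 in Control and 5.17, 5.25 and 5.13 in the Combination (-1.05 ± 0.17 SE, adjusted p 0.0925 in limma). For both genes the groups did not overlap and Control replicate 3 was again the Control array nearest to the Combination. Without that array the adjusted p in limma was 0.00105 for Ect2 (-1.55), Hmmr (-0.90) and Ccna2 (-1.29). The kinase Aurka, which matures centrosomes, was -0.67 ± 0.10 (SE) in the Combination relative to Control. The same difference was -0.51 ± 0.080 for Cdc6, which loads the replicative helicase on origins, and -0.51 ± 0.084 for Kif23, a kinesin of the spindle midzone. Cdc6 differed from the rest in that Control replicate 3 was the highest of its group (4.76 against 4.69 and 4.62).

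The 8 genes chosen as higher in the same way had smaller differences, from 0.31 to 0.87, and also missed the threshold. Atp13a5 (probe set 17329533), a transporting ATPase of the P5 family, read 6.15, 6.29 and 6.23 in Control and 6.63, 6.66 and 6.71 in the Combination. All arrays of each group lay close together, and Control replicate 3 lay between the other Control arrays. The Atp13a5 difference was 0.45 ± 0.059 (SE) with an adjusted p of 0.0639 in limma. Zfp932, a zinc finger protein, read 5.38, 5.51 and 5.90 in Control and 6.30, 6.60 and 6.49 in the Combination (0.87 ± 0.14 SE, adjusted p 0.107 in limma). Its groups did not overlap, with Control replicate 3 nearest to the treated arrays. The others were the gasdermin Gsdma3 (0.37 ± 0.072 SE), the zinc finger gene Zfp788 (0.33 ± 0.068), the neuronal paraneoplastic antigen gene Pnma3 (0.32 ± 0.070), the sulfate transporter gene Slc13a4 (0.33 ± 0.072), Fam227a (0.31 ± 0.068) and the ribosomal S6 kinase gene Rps6kb2 (0.31 ± 0.070). Their adjusted p in limma lay between 0.132 and 0.160. Of the 16 genes, 11 passed the threshold without Control replicate 3, and 0 changed sign under any alternative setting that measured them (20 or 21 per gene).

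**Figure D2:**
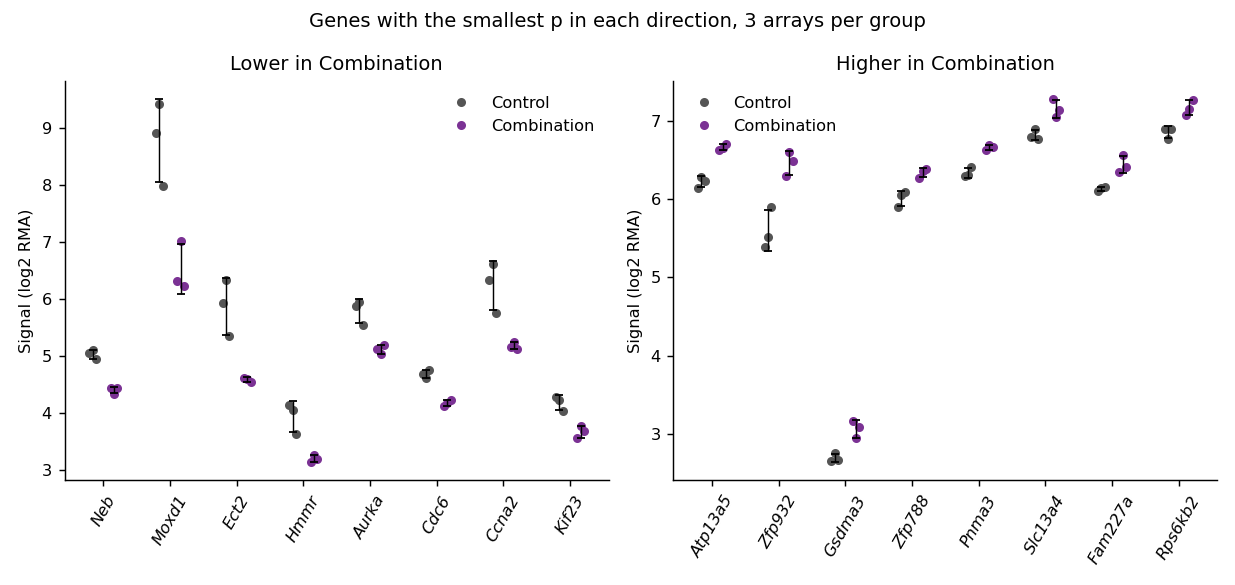
Log2 values (y axis) of the genes of the naming rule in each array of the Control and Combination groups, with 1 point per array in order of replicate number and bars of 1 SD around the mean. Control replicate 3 lies nearest to the Combination for most of the lower genes, such as Moxd1 at 7.99 and Ect2 at 5.34.

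Genes of mitosis were lower in the Combination as a group. Of 30 listed genes 29 were measured, and 29 had a negative difference, with a median of -0.73 against 0.000478 over all genes. The groups did not overlap for 24 of the 29, all lower, where the background was 7.82% of genes. At an unadjusted p under 0.05, 26 of 29 were lower, against 6.18% of genes. None passed the adjusted threshold in limma, and 22 of 29 did so without Control replicate 3, all falling, against 1.02% of genes. Mki67, the proliferation antigen Ki-67, read 6.84, 6.77 and 6.04 in Control and 5.44, 5.51 and 5.56 in the Combination (-1.05 ± 0.20 SE, adjusted p 0.130 in limma). The Mki67 difference was -1.30 with an adjusted p of 0.00641 without Control replicate 3. The mean of the mitosis genes relative to their mean over the 12 arrays was 0.664, 0.788 and 0.189 in Control replicates 1 to 3. It was -0.167, -0.119 and -0.156 in the Combination. Control replicate 3 sat between the groups, still above every Combination array. The neuron genes moved the other way by a little (below), and with their score as a covariate the mitosis median was -0.53.

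Genes of DNA replication and the G1/S transition followed with smaller differences. Of 27 measured, 26 were lower, with a median of -0.34, and 17 did not overlap between the groups, all lower. An unadjusted p under 0.05 was reached by 19, all lower, and 12 fell past the adjusted threshold in limma without Control replicate 3. Besides Cdc6, the members with the smallest p were Mcm10, which helps to open origins (-0.55 ± 0.096 SE), Uhrf1, which recruits the maintenance DNA methyltransferase (-0.59 ± 0.12), and Mcm5, a subunit of the replicative helicase (-0.94 ± 0.20). Mcm5 read 6.39, 6.31 and 5.58 in Control and 5.42, 5.19 and 4.86 in the Combination. Its adjusted p was 0.146 in limma, and it was 0.00656 without Control replicate 3.

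Promoter windows of the mitosis genes were taken from RefSeq (GRCm38.p6, 250 bases before to 50 after each start site). They were searched on both strands for the letters of 2 elements. These were the cell cycle homology region (TTTGAA or TTCGAA) and the CCAAT box, both known from G2/M genes. Windows were given for 25 of the mitosis genes, 27 windows in all. TTTGAA stood in 23 of 27 (85.2%), against 17.9% of all 32817 windows. TTCGAA stood in 3 of 27 (11.1%), against 1.56%, and either form in 24 of 27 (88.9%), against 19.2%. CCAAT stood in 22 of 27 (81.5%), against 37.4%. A match of letters is a description of the window and not a measured binding site. The shares cover all measured list members with a window, whatever their difference. They describe the list and not an effect of the Combination. The windows of Ect2 (chr3:27153829-27154128, minus strand) and Hmmr (chr11:40733388-40733687, minus strand) are shown because they are the mitosis genes with the smallest p whose window holds the element. The letters run 5′ to 3′ on the gene's strand, and capitals mark the elements, where CCAAT on the opposite strand reads ATTGG.
Ect2: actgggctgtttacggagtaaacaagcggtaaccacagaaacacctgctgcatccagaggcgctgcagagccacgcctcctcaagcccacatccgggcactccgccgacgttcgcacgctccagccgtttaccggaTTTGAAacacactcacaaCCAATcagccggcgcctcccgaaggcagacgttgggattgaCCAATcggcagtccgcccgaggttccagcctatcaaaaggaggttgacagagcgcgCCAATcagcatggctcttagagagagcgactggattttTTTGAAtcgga
Hmmr: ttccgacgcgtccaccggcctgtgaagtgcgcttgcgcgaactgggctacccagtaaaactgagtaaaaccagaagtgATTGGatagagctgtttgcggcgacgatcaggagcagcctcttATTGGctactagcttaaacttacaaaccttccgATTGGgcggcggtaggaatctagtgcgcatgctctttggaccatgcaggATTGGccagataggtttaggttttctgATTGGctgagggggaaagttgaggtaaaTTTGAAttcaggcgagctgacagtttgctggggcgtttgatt
The Ect2 window holds TTTGAA at -114 to -109 and at 40 to 45 from the start site, where 1 is the first transcribed base, and CCAAT at -96, -55 and 2. The Hmmr window holds TTTGAA at 9 to 14 and ATTGG at -172, -129, -96, -47 and -20.

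Interferon-stimulated genes formed the other group with large differences. Of the 26 measured genes of the type I interferon response, 26 were lower in the Combination, with a median of -0.54. The groups did not overlap for 9, all lower, and 18 had an unadjusted p under 0.05, all lower, against the background of 6.18%. None passed in limma after adjustment, and 8 fell past the threshold without Control replicate 3. Ifitm3, a membrane protein that blocks virus entry, read 9.66, 10.00 and 8.68 in Control and 8.15, 8.43 and 8.41 in the Combination. The groups did not overlap, but the gap between Control replicate 3 and the nearest Combination array was small beside the spread of the Control arrays. The Ifitm3 difference was -1.11 ± 0.30 (SE, adjusted p 0.202 in limma), and it was -1.496 with an adjusted p of 0.0150 without Control replicate 3. Bst2, or tetherin, which holds budding viruses at the cell surface, read 8.05, 8.75 and 6.65 in Control and 6.17, 6.36 and 6.43 in the Combination (-1.497 ± 0.45 SE, adjusted p 0.244 in limma). Control replicate 3 was again nearer to the Combination than to its own group, and without it the Bst2 difference was -2.08 with an adjusted p of 0.0204. The RNA sensor gene Ifih1 (-0.85 ± 0.25 SE), the ADP-ribosyltransferase gene Parp12 (-0.75 ± 0.22) and Herc6, whose product attaches ISG15 (-0.66 ± 0.19) also had separate groups. Ifih1 (adjusted p 0.0177 in limma) and Parp12 (0.0143) fell past the threshold without Control replicate 3.

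The genes of the interferon gamma response were also lower against Control, by less and with more overlap. Of 21 measured, 19 were lower, with a median of -0.37. Only 2 did not overlap between the groups, and 6 had an unadjusted p under 0.05, all lower. The chemokine gene Cxcl11 (-0.55 ± 0.14 SE) and Irf8 (-0.44 ± 0.16), a transcription factor of myeloid cells, were the members with separate groups. Irgm1, an immunity-related GTPase gene, read 7.10, 7.32 and 5.95 in Control and 5.61, 6.16 and 6.26 in the Combination (-0.78 ± 0.32 SE). Control replicate 3 lay inside the Combination's range for Irgm1, so the difference rested on Control replicates 1 and 2. Without Control replicate 3 the Irgm1 difference was -1.20 with an adjusted p of 0.0391 in limma, the 1 gene of the list that passed then. Cd274, which encodes the PD-1 ligand PD-L1 and is a member of the list, was not lower. It read 6.58, 7.05 and 6.23 in Control and 6.81, 6.73 and 7.38 in the Combination, a difference of 0.36 ± 0.26 (SE, 95% interval -0.21 to 0.92) with an adjusted p of 0.633 in limma. The groups overlapped, and Combination replicate 3 held the highest value.

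The medians of both interferon lists changed when Control replicate 3 was left out and when the neuron score was a covariate. The score of the type I list was 0.719, 0.985 and 0.072 in Control replicates 1 to 3 and -0.131, 0.055 and 0.064 in the Combination. That of the interferon gamma list was 0.637, 1.013 and -0.106 in Control and -0.042, 0.261 and 0.322 in the Combination. In the interferon gamma list Control replicate 3 thus lay below every Combination array. Without Control replicate 3 the medians were -0.82 (type I) and -0.67 (gamma), and with the neuron score as a covariate they were -0.27 and -0.09. The neuron score was lowest in Control replicates 1 and 2, so this covariate cannot be fully told apart from the groups. Control replicate 2, the highest Control array in both lists, weighed in the other direction: without it the interferon gamma median was -0.12.

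The interferon-stimulated response element was looked for in the same windows, as GAAA, any 2 bases and GAAA again, on both strands. It stood in 10 of 22 windows (45.5%) of 18 type I genes and in 8 of 15 windows (53.3%) of 12 interferon gamma genes, against 3.43% of all windows. Here too the shares describe the lists, whatever the difference of each gene. Ifitm3 (chr7:141010695-141010994, minus strand) and Ifih1 (chr2:62646206-62646505, minus strand) are shown as the type I genes with the smallest p whose window holds it, with the element in capitals.
Ifitm3: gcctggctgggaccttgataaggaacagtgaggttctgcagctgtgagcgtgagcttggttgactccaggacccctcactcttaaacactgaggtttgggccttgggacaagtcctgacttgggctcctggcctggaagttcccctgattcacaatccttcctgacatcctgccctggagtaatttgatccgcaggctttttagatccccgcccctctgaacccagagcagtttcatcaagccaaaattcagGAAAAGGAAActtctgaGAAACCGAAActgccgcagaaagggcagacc
Ifih1: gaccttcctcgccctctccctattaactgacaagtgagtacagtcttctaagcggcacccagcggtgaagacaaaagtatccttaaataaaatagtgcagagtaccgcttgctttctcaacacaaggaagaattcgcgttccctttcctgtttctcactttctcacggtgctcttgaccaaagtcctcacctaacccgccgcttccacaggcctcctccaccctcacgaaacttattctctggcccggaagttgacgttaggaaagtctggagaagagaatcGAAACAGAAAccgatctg
The element lies at 3 to 12 and at 20 to 29 in the Ifitm3 window and at 33 to 42 in the Ifih1 window, after the annotated start site in both genes.

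Genes of antigen presentation were lower by less. Of 18 measured MHC class I genes, 17 were lower, with a median of -0.28, but 0 had separate groups. At an unadjusted p under 0.05, 3 were lower, and without Control replicate 3, 5 fell past the adjusted threshold in limma. Leaving out that array gave a median of -0.52, leaving out Control replicate 2 gave -0.10, and the neuron score as a covariate gave -0.07. Psmb8, an immunoproteasome subunit, read 7.68, 7.95 and 6.70 in Control and 6.73, 6.68 and 6.93 in the Combination (-0.66 ± 0.27 SE). Control replicate 3 lay among the Combination arrays, well below the other Control arrays, and without it the Psmb8 difference was -1.03 with an adjusted p of 0.0330 in limma. The other immunoproteasome genes Psmb10 (-0.33 ± 0.14 SE) and Psme1 (-0.35 ± 0.12) also had Control replicate 3 within or below the Combination arrays, and both had an adjusted p of 0.00790 without it. In MHC class II presentation 10 of 14 were lower, with a median of -0.12, and 3 had separate groups, all lower. Leaving out Control replicate 3 moved the class II median to -0.28, and leaving out replicate 2 of that group moved it to -0.07. H2-Ob, a regulator of peptide loading in B cells, read 5.05, 5.08 and 5.24 in Control and 4.73, 4.74 and 4.86 in the Combination. For H2-Ob Control replicate 3 was the Control array farthest from the Combination. Its difference was -0.35 ± 0.073 (SE), with an adjusted p of 0.145 in limma.

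Markers of myeloid cells had small median differences, and none passed the threshold in limma with all arrays. Of 17 microglia genes 13 were lower, with a median of -0.09. P2ry12, the purinergic receptor of resting microglia, read 7.67, 7.65 and 7.53 in Control and 7.59, 7.57 and 7.77 in the Combination, with overlapping groups and a difference of 0.03 ± 0.091 (SE). The groups overlapped for 13 of the 17, and 3 genes had separate groups on the low side, among them Olfml3 (-0.31 ± 0.088 SE) and Crybb1 (-0.30 ± 0.097). Of 18 genes of monocytes and blood-derived macrophages 14 were lower, with a median of -0.11. Plac8, a gene of inflammatory monocytes, was -0.35 ± 0.10 (SE), whereas the lysozyme gene Lyz1 was 0.36 ± 0.14 higher. Of 18 genes of lipid-associated macrophages 15 were lower, with a median of -0.18. Gpnmb, a membrane glycoprotein of phagocytes, had the most negative difference of that list and a wide spread. It read 8.54, 9.27 and 7.34 in Control and 6.32, 7.98 and 6.85 in the Combination (-1.34 ± 0.55 SE). The galectin gene Lgals3 had separate groups (-0.48 ± 0.15 SE).

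Complement and scavenger genes were lower in 15 of 21, with a median of -0.20, and 3 had separate groups, all lower. Complement factor B (Cfb) read 5.65, 6.16 and 5.25 in Control and 4.94, 5.24 and 5.18 in the Combination (-0.57 ± 0.19 SE). Without Control replicate 3 the medians were -0.26 (monocytes), -0.18 (microglia), -0.30 (lipid-associated macrophages) and -0.36 (complement). Plac8 (adjusted p 0.0220 in limma), Lgals3 (0.0453), Cd63 (0.0414) and Cfb (0.0437) fell past the threshold then, and 0 microglia genes did. With the neuron score as a covariate the same 4 medians were -0.01, -0.03, -0.05 and -0.02. Neutrophil genes were lower in 10 of 17 (median -0.03) and dendritic cell genes in 10 of 16 (median -0.12). Clec10a, a lectin of conventional dendritic cells, had separate groups (-0.32 ± 0.090 SE), and Xcr1, the receptor that marks cross-presenting dendritic cells, was -0.26 ± 0.10. Inflammatory cytokine and NF-kB genes were lower in 23 of 24, with a median of -0.15, of which 4 had separate groups and 6 had an unadjusted p under 0.05. Among them were Nfkb2 (-0.43 ± 0.13 SE), a subunit of NF-kB, and the monocyte chemokine gene Ccl12 (-0.62 ± 0.25).

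PD-1 sits on lymphocytes, and the medians of the lymphocyte lists were near 0. Their signals were low. The median level was 4.94 for T cell genes, 4.12 for cytotoxic and natural killer genes and 4.66 for checkpoint genes. It was 5.25 for regulatory T cell genes and 4.565 for B and plasma cell genes, against 5.72 over all genes. A small difference at such levels may go unseen. Of 16 T cell genes 13 were lower, with a median of -0.10, and 1 had separate groups. Cd8a, a chain of the co-receptor of cytotoxic T cells, read 4.19, 4.30 and 4.16 in Control and 4.12, 4.18 and 4.39 in the Combination (0.01 ± 0.099 SE). The other chain, Cd8b1, read 5.06, 5.15 and 4.68 in Control and 4.73, 4.61 and 4.62 in the Combination (-0.31 ± 0.11). The groups overlapped for both chains, and without Control replicate 3 Cd8b1 was -0.45 with an adjusted p of 0.0324 in limma. Cytotoxic and natural killer genes were lower in 14 of 22 (median -0.07). Granzyme B (Gzmb) read 4.30, 4.69 and 3.78 in Control and 3.58, 4.07 and 4.12 in the Combination, with overlapping groups and a difference of -0.33 ± 0.23 (SE). Leaving out 1 array at a time gave -0.57 to -0.12 for Gzmb. Klrk1, an activating receptor gene of killer cells, was -0.44 ± 0.17 (SE) and fell by 0.68 without Control replicate 3 (adjusted p 0.0220 in limma). Gzma, another granzyme gene, outside the naming rule and chosen after its values were seen, fell by 0.64 then (adjusted p 0.0458 in limma). Perforin (Prf1) had separate groups (-0.27 ± 0.10), whereas the receptor gene Klrb1c was 0.36 ± 0.16 higher with overlap. Ifng, the gene of interferon gamma itself, read 4.54, 4.67 and 4.64 in Control and 4.58, 4.53 and 4.53 in the Combination (-0.07 ± 0.083).

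At a low signal, the target of the antibody showed no difference beyond its spread. Pdcd1, which encodes PD-1, read 4.70, 4.23 and 4.59 in Control and 4.35, 4.23 and 4.61 in the Combination (-0.11 ± 0.17 SE, 95% interval -0.48 to 0.27, adjusted p 0.853 in limma). Checkpoint and costimulatory genes were lower in 10 of 19, with a median of -0.04, and 2 had separate groups in each direction. Ctla4, an inhibitory receptor, read 3.12, 3.06 and 2.95 in Control and 3.25, 3.32 and 3.39 in the Combination (0.27 ± 0.15 SE). Lag3, also an inhibitory receptor, was -0.26 ± 0.13, and its groups did not overlap either. Regulatory T cell genes were lower in 5 of 12 (median 0.02). Foxp3, which defines these cells, was -0.17 ± 0.17 and overlapped. B and plasma cell genes were lower in 10 of 17 (median -0.04), with Cd79a, a chain of the B cell receptor complex, at 0.27 ± 0.082 and Sdc1 at -0.38 ± 0.11.

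Genes known to respond to DNA damage were not higher as a group in the Combination. Of 21 p53 targets 11 were lower, with a median of -0.01, and 3 had an unadjusted p under 0.05 on the low side and 1 on the high side. Cdkn1a, the p53 target that encodes the cell cycle inhibitor p21, read 8.04, 8.27 and 7.70 in Control and 7.53, 7.56 and 7.54 in the Combination. The groups did not overlap, and the 3 Combination arrays were nearly equal. The Cdkn1a difference was -0.46 ± 0.12 (SE), with an adjusted p of 0.195 in limma, and -0.62 with an adjusted p of 0.0143 without Control replicate 3. Of 22 DNA repair genes 14 were lower (median -0.06). Fancd2, of the Fanconi anaemia pathway, read 5.56, 5.58 and 5.55 in Control and 5.11, 5.20 and 5.09 in the Combination (-0.43 ± 0.086 SE, adjusted p 0.140 in limma). Its Control arrays agreed closely, with replicate 3 no exception. Mgmt, which repairs the TMZ lesion, read 4.92, 4.98 and 4.91 in Control and 4.90, 4.92 and 4.60 in the Combination (-0.13 ± 0.097, 95% interval -0.34 to 0.08). The groups overlapped.

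Genes of the glioma cells and of growth signalling were lower in part. Of 20 glioma and neural progenitor genes 15 were lower, with a median of -0.13, and 7 had separate groups on the low side against 1 on the high side. Vimentin (Vim), an intermediate filament of glioma cells and of other cells, read 9.79, 10.06 and 9.16 in Control and 8.65, 8.95 and 8.86 in the Combination (-0.85 ± 0.23 SE). Nestin (Nes), the filament of neural progenitors, was -0.44 ± 0.098, and Myc, the growth-promoting transcription factor, -0.47 ± 0.11. These 3 genes had separate groups with Control replicate 3 lowest of the Control arrays. Without it their adjusted p in limma was 0.0329 (Vim, -1.11), 0.0162 (Nes) and 0.0220 (Myc). Of 16 genes of MAPK output and feedback 11 were lower (median -0.17), with separate groups for 5, all lower. Cyclin D1 (Ccnd1), which links growth signals to G1, read 8.22, 8.51 and 7.95 in Control and 7.63, 7.58 and 7.66 in the Combination (-0.60 ± 0.13). The feedback inhibitor Spry1 was -0.37 ± 0.094. Immediate early genes were lower in 18 of 20 (median -0.21), with separate groups for 4, among them Ccn1 (-0.49 ± 0.11) and Junb (-0.44 ± 0.11). Without Control replicate 2 the medians of these lists were -0.06 (glioma), -0.09 (MAPK) and -0.09 (immediate early). Without Control replicate 3 they were -0.21, -0.20 and -0.20, and 3 glioma, 4 MAPK and 1 of the immediate early genes fell past the threshold in limma, among them Ccnd1 (adjusted p 0.0150) and Spry1 (0.0485).

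Endothelial genes had the highest median of the 31 lists. The median was 0.15, 16 of 20 were higher, and 8 had separate groups, all higher, against a background of 8.98% higher. At an unadjusted p under 0.05, 3 were higher, against 5.43% of genes, and 1 lower, and none passed in limma. The endothelial score was -0.081, -0.068 and -0.153 in Control and -0.035, 0.027 and -0.017 in the Combination, so the groups were separate and Control replicate 3 lay farthest from the Combination. Tek, the angiopoietin receptor of endothelium, read 5.55, 6.05 and 5.85 in Control and 6.31, 6.25 and 6.11 in the Combination (0.40 ± 0.14 SE). Slco1a4, an organic anion transporter of the blood-brain barrier, was 0.35 ± 0.15 and Pltp, a phospholipid transfer protein, 0.20 ± 0.085. Ly6c1, which marks endothelium and also some lymphocytes and monocytes, was the lower member with an unadjusted p under 0.05, at -0.68 ± 0.24. Among 22 genes of extracellular matrix, fibroblasts and pericytes 11 were lower (median 0.02). Separate groups were found for 3 of them on the low side and 4 on the high side. Atp13a5, described above, belongs to this list and had its most positive difference (0.45). Col3a1, a fibrillar collagen of fibroblasts, had separate groups on the low side (-0.60 ± 0.14), as had Col4a1 of the basement membrane (-0.27 ± 0.070). Rgs5, a marker of pericytes, had separate groups on the high side (0.27 ± 0.084). Of 17 hypoxia and glycolysis genes 12 were lower (median -0.03), and Vegfa, the growth factor of endothelium, was 0.26 ± 0.089 higher with separate groups.

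Genes of the surrounding brain varied by little. Neuron genes were lower in 5 of 18, with a median of 0.04, and their score was -0.072, -0.093 and 0.003 in Control replicates 1 to 3 and 0.016, -0.021 and -0.003 in the Combination. Control replicates 1 and 2 were thus lowest in neuron genes, and Control replicate 3 lay among the Combination arrays. The synaptic vesicle gene Syp was 0.07 ± 0.050 (SE). Oligodendrocyte genes were lower in 12 of 15 (median -0.10). Myelin basic protein (Mbp) differed by -0.01 ± 0.065, and Sox10, the transcription factor of the lineage, by -0.44 ± 0.14 with separate groups. Astrocyte genes were lower in 6 of 18 (median 0.02). Gfap, which reactive astrocytes and some gliomas express, read 9.84, 9.56 and 9.44 in Control and 9.29, 8.999 and 9.34 in the Combination (-0.40 ± 0.15), whereas the glutamate transporters Slc1a2 (0.16 ± 0.064) and Slc1a3 (0.13 ± 0.054) were higher, each with separate groups. Choroid plexus and ependyma genes (5 of 16 lower, median 0.05) and blood cell genes (2 of 6 lower, median 0.09) had scores that overlapped between the groups.

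**Figure D3:**
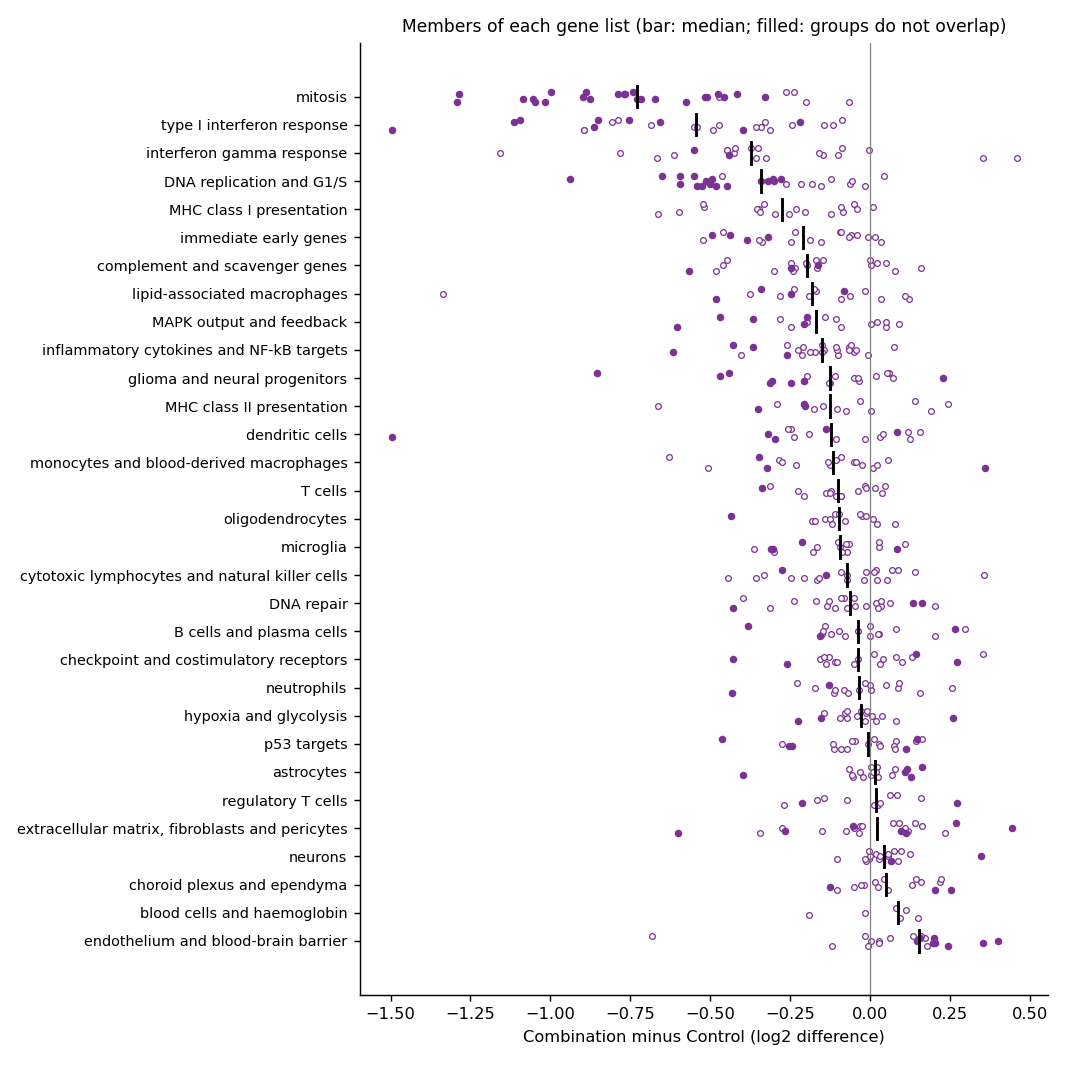
Median log2 difference (Combination minus Control, x axis) of the measured members of each of the 31 lists, as a bar, with the members as points that are filled where the groups do not overlap. Mitosis (median -0.73) and the type I interferon response (-0.54) lie farthest to the left and endothelium (0.15) farthest to the right.

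The Combination was then set beside each agent alone. The differences from Control are values that share the Control arrays, so they are given side by side only. Moxd1 was -2.25 in the Combination, -2.77 in TMZ and -2.78 in Anti-PD-1. The median of the mitosis list was -0.73, -0.75 and -0.76 in the same order, and that of the DNA replication list -0.34, -0.32 and -0.41. The type I interferon list had medians of -0.54, -0.70 and -0.91, and the interferon gamma list of -0.37, -0.58 and -1.16. The mitosis medians thus lay within 0.03 of each other, while the interferon medians were least negative in the Combination. At the adjusted threshold limma called 22 genes (0.0992%) for TMZ against Control and 65 (0.293%) for Anti-PD-1 against Control.

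Tested directly, the Combination did not differ from either agent for any gene past the threshold. Against TMZ limma called 0 genes, with 930 (4.19%) at an unadjusted p under 0.05 and a smallest adjusted p of 0.670. Against Anti-PD-1 it called 0, with 1089 (4.91%) at an unadjusted p under 0.05 and a smallest adjusted p of 0.325. Both counts were 0 under every alternative run. Intervals of single genes were wide: for Moxd1 the Combination minus TMZ difference was 0.51 (95% interval -0.23 to 1.25) and the Combination minus Anti-PD-1 difference 0.52 (-0.22 to 1.26). For Ect2 they were -0.04 (-0.46 to 0.39) and 0.10 (-0.32 to 0.53).

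The lists with the largest medians in Combination against Anti-PD-1 were those of interferon and antigen presentation. Of 21 interferon gamma genes 18 were higher in the Combination than in Anti-PD-1, with a median of 0.87, and 12 of them were higher at an unadjusted p under 0.05, against 2.01% of all genes. In the type I list 23 of 26 were higher, with a median of 0.37 and 11 at that level, and in MHC class I 17 of 18, with a median of 0.32 and 5 at that level. In MHC class II 13 of 14 were higher, with a median of 0.35 and 2 at that level. None passed after adjustment. Neuron genes lay the other way, with 1 of 18 higher and a median of -0.05, and with the neuron score as a covariate the medians were 0.41 (gamma), 0.15 (type I), 0.10 (MHC class I) and 0.24 (MHC class II). Without Anti-PD-1 replicate 1, the array lowest in all 4 lists, they were 0.59, 0.30, 0.16 and 0.24. Cd274 read 5.88, 5.92 and 6.31 in Anti-PD-1, below all 3 Combination arrays (6.81, 6.73 and 7.38). The Cd274 difference was 0.94 (95% interval 0.38 to 1.5), with an adjusted p of 1 in limma. Irgm1 read 4.92, 5.06 and 5.43 in Anti-PD-1, also below the Combination arrays (5.61, 6.16 and 6.26), and its difference was 0.87 (0.18 to 1.56). The interferon gamma score was -0.924, -0.604 and -0.219 in Anti-PD-1, below the -0.042, 0.261 and 0.322 of the Combination. In TMZ it was 0.264, -0.456 and -0.146, which overlapped the Combination. The 5 genes with the smallest p per direction in this contrast were others. They included Prss55, a serine protease gene, at -0.44 and Tlr13, a sensor of bacterial RNA, at 0.59 in the Combination relative to Anti-PD-1. Their adjusted p were 0.325 and 0.925 in limma. Among the genes of smallest p against TMZ were Gsdmc2 (-0.65) and Fam71a (-0.55), both with an adjusted p of 0.670 in limma.

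**Figure D4:**
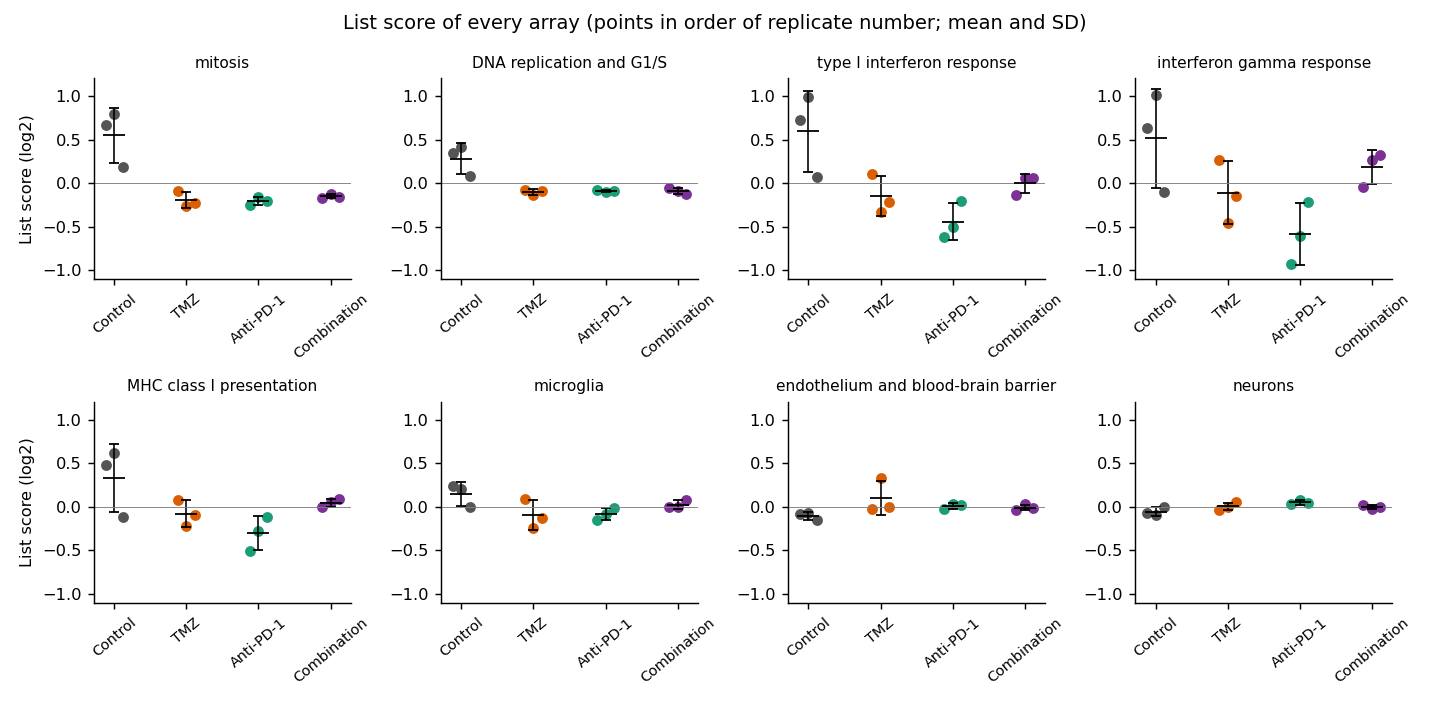
Scores of 8 lists (y axis, log2) in each array of the 4 groups, with the mean and SD; a score averages over the list how far each gene lies from its own mean of the 12 arrays. The mitosis score is positive in every Control array (0.189 to 0.788) and negative in every treated array. The interferon gamma score has its lowest mean in Anti-PD-1 (-0.924 to -0.219), whose arrays overlap those of TMZ (-0.456 to 0.264).

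The interaction asks whether the Combination differs from the sum of both single effects on the log2 scale. It subtracts the effect of anti-PD-1 without TMZ (Anti-PD-1 against Control) from its effect with TMZ (Combination against TMZ), so a positive value means that the Combination lay above that sum. limma called 1 gene (0.00451%), and 1978 (8.92%) had an unadjusted p under 0.05, of which 1031 (4.65%) were positive. At that level 24 of 29 mitosis genes, 21 of 26 type I genes, 17 of 21 interferon gamma genes and 13 of 18 MHC class I genes were positive. For each of these lists the median against Control was negative with either agent and with both. Where all treated groups lie equally far below Control, the interaction equals that distance with its sign turned. For the mitosis list the median interaction was 0.77, beside a median of -0.73 for the Combination against Control. These counts are thus not separate from the differences from Control, and how the agents act on each other was not tested. The interaction contains the Control arrays, and without Control replicate 3 it called 198 genes. Among the named genes Moxd1 had an interaction of 3.29 (95% interval 2.24 to 4.34) with an adjusted p of 0.113 in limma, and Car6, a secreted carbonic anhydrase, one of 1.36 (0.94 to 1.78) with the same adjusted p.

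The gene called was 3830403N18Rik, a clone-named gene outside the naming rule that is singled out because it passed. It read 3.96, 3.76 and 3.65 in Control, 2.96, 2.74 and 2.77 in TMZ, 2.67, 2.66 and 2.72 in Anti-PD-1 and 3.19, 3.02 and 2.95 in the Combination. All treated arrays lay below all Control arrays, and the Combination arrays lay above those of the single agents, except that TMZ replicate 1 lay above Combination replicate 3. The sum of both single effects would lie below every treated array, toward the lowest signal of any array (1.24). Whether this probe set can read so low a level was not tested. The interaction was 1.33 ± 0.13 (SE) with an adjusted p of 0.00909 in limma. It kept its sign under each of 19 alternatives that measured it and could be fitted. Its adjusted p was over the threshold without TMZ replicate 2 (0.0516), without Anti-PD-1 replicate 1 (0.0519) or 2 (0.0555), over all probe sets (0.0588) and with the neuron score as a covariate (0.472).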

How the data were processed

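Total RNA of 12 tumour samples was hybridised to Affymetrix mouse gene arrays of the whole-transcript type. Per the submitters' processing notes, the authors used RMA in the Affymetrix Expression Console (versions not given in the sources used here). The deposited values are log2 signals of 41345 probe sets with 0 missing. RMA quantile normalises the arrays together, so a change shared by most genes cannot be seen. Of the probe sets, 23521 had exactly 1 symbol in the platform annotation, 1814 had several and 16010 had none listed. Of 22180 genes, 21994 were matched to RefSeq (GRCm38.p6). For 1082 genes with several probe sets the one with the highest mean over the 12 arrays was used.

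All 12 arrays were fitted with limma 3.58.1 in R 4.3.3 (a mean per group, 8 residual degrees of freedom, eBayes defaults). Tests were two-sided, with Benjamini-Hochberg adjustment over all genes and a threshold of 0.05. The fit was tested on simulated data. Arrays give no read depth, and 3 arrays per group limit the precision. The labels do not say that replicates are separate animals, so p-values measure the spread between arrays, which may be technical.

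Named genes were the 15 largest changes per direction past the threshold, or, with fewer than 8 passing, the 8 of smallest p with no overlap between the groups' arrays. Predicted and clone-named genes, receptors of smell and taste and small RNAs were left out of this part of the rule. Added were the 4 members of smallest p in each of 31 lists (583 of 639 entries measured), 13 genes of interest and the 5 genes of smallest p per direction in the other contrasts. The comparison, lists and rule were chosen with earlier results of these data known. Lists are described by counts and medians, with no test. The 21 alternatives cover the brightness filter, probe set choice, variance model, centring, array weights, replicate block, neuron score and each array left out.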

Additional observations from a re-analysis of the deposited data

Results flagged for a closer look

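The interaction of 3830403N18Rik, 1.33 on the log2 scale, was the 1 gene for which the effect of adding anti-PD-1 differed between mice with and without TMZ past the threshold (adjusted p 0.00909 in limma). Its difference from Control was -0.96 in TMZ, -1.11 in Anti-PD-1 and -0.74 in the Combination. Group means were 3.79 in Control, 2.83 in TMZ, 2.68 in Anti-PD-1 and 3.05 in the Combination, so the separation of the groups is between low values. The sum of both single effects would lie lower still, toward the lowest signal of any array (1.24). The gene was singled out from 22180 because it passed.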

How the results depend on the processing

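In Combination against Control the count of calls was 0 in limma as run. It was 5 with a minimum mean log2 value of 5, 33 with a variance trend and robust prior (25 lower), 17 with array weights (14 lower) and 0 to 282 when 1 array was left out. It was 0 over all probe sets, with the mean of a gene's probe sets, with only the compared groups, with centred arrays and with the neuron score. Combination against each single agent stayed at 0 in every alternative. The interaction count of 1 became 0 with the brightness filter, which removes 3830403N18Rik before testing because its mean lies under 5. It was 0 over all probe sets, 9 with the variance trend, 0 with the neuron score and 0 to 198 when 1 array was left out. The count of 198 came without Control replicate 3. The interaction was not run with only the compared groups. With a replicate block the counts were 0, 0, 0 and 1. Control and Combination arrays of equal number had deviations that correlated at -0.035, 0.052 and -0.015, and 1 of 3 Combination arrays correlated best with its own number. With 3 arrays per group this check cannot tell whether arrays of equal number share more than the number. The cause of the changes in the counts was not tested.

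Of 143 genes named in Combination against Control, 7 changed sign under at least 1 alternative. With centred arrays Snap25 became 0.00691 and Mbp 0.0102, and with the neuron score Mbp became 0.0422 and Foxp3 0.0116. With 1 array left out, Snap25 ranged from -0.0545 to 0.0235, Mbp from -0.0642 to 0.0271, Cd8a from -0.0668 to 0.0708, P2ry12 from -0.0337 to 0.0659, Ppbp from -0.0389 to 0.178 and Pf4 from -0.0117 to 0.212. The medians of 6 of 31 lists changed sign, and 40 of the 143 genes passed the threshold under at least 1 alternative.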

Other observations

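A large cluster of microRNA genes on chromosome 12, read by probe sets outside every list, was higher in the Combination than in Control. It was looked at after its values had been seen. RefSeq (GRCm38.p6) places 60 microRNA genes between Meg3 and Mirg, an imprinted region expressed from the maternal chromosome, and 43 of them were measured. Of these 39 were higher, with a median difference of 0.30, and 20 had separate groups, all higher. Over all 483 microRNA genes measured, 272 were higher, with a median of 0.03, and 75 had separate groups on the high side and 27 on the low side. The genes of the cluster come from long shared transcripts, so they are not independent of each other. The probe sets do not tell precursor transcripts from mature microRNAs.

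The 2 cluster members below were chosen as those with the smallest p of the 43 measured, and both had an adjusted p of 0.124 in limma. Mir376b read 5.01, 5.07 and 5.25 in Control and 5.95, 5.80 and 5.78 in the Combination (0.73 ± 0.13 SE). Mir382 read 5.99, 6.16 and 6.38 in Control and 6.88, 6.97 and 6.72 in the Combination (0.68 ± 0.12 SE). For both genes every Combination array lay above every Control array, with Control replicate 3 the highest of its group. Without it the differences were 0.80 for Mir376b (adjusted p 0.0319 in limma) and 0.78 for Mir382 (0.0178). Their mature sequences in RefSeq, with the seed (bases 2 to 8) in capitals, show that the 4 arms have different seeds.
mmu-miR-376b-5p: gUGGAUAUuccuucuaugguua
mmu-miR-376b-3p: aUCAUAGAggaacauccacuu
mmu-miR-382-5p: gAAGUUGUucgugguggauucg
mmu-miR-382-3p: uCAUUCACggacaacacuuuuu

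The long noncoding RNAs of the region differed by about as much as the cluster's median: Rian, which hosts part of the cluster's small RNAs, was 0.27 ± 0.092 (SE, adjusted p 0.317 in limma) and Meg3 0.33 ± 0.12 (adjusted p 0.318). Dlk1, a gene of the region expressed from the paternal chromosome, was 0.04 ± 0.10. The cluster's mean relative to its mean over 12 arrays was -0.279, -0.360 and -0.109 in Control and 0.043, 0.100 and -0.024 in the Combination. It was -0.096, 0.166 and 0.182 in TMZ and 0.050, 0.113 and 0.213 in Anti-PD-1, so every treated array lay above every Control array. Against the same Control arrays, the cluster's median difference was 0.30 in TMZ and 0.39 in Anti-PD-1. The neuron score also was lowest in Control replicates 1 and 2, and its part in the result was not tested.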
